A study of Mus musculus with 27 samples.

Results

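The genes described here were 10 kinases of the upper tiers of the MAP kinase cascades, namely the MAP kinase kinases Map2k1, Map2k2, Map2k3, Map2k4, Map2k6 and Map2k7 and the MAP kinase kinase kinases Map3k1, Map3k5, Map3k8 and Map3k14. They were chosen by name, as the rows of the normalised expression table that carried these symbols, and all 10 were found among its 45070 genes. All 10 were also among the 13901 genes tested, which had a normalised read count of at least 10 in at least 3 of the 27 samples.

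The cells were wild-type bone marrow-derived macrophages (BMDMs), primary macrophages grown from the bone marrow of male C57/BL6 mice. All cells, controls included, first received DMSO, a solvent, for 1 h. They were then left untreated, or received lipopolysaccharide (LPS, from the outer membrane of Gram-negative bacteria, which acts through the receptor TLR4) or interleukin-4 (IL-4, a cytokine that drives alternative macrophage activation), each at 10 ng/ml, over 4 times of stimulation (0.5, 1, 2 or 4 h). Each of the 9 groups held 3 samples, numbered 1 to 3. Chromatin-associated RNA was sequenced, a fraction enriched for transcripts still attached to the DNA and not yet fully spliced, so that the values follow RNA production more closely than RNA stock or protein.

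In a MAP kinase cascade, a MAP3K phosphorylates a MAP2K, which phosphorylates a MAP kinase. Map2k1 and Map2k2 encode MEK1 and MEK2, which act on the ERK kinases. Map2k3 and Map2k6 encode the kinases of p38, Map2k7 encodes a kinase of JNK, and Map2k4 encodes a kinase of JNK that can also act on p38. Among the MAP3Ks, Map3k8 encodes TPL2, which links TLR4 to MEK1 and is held by the NF-kB precursor p105 and by ABIN2. Map3k5 encodes the stress-activated kinase ASK1, Map3k1 encodes MEKK1, and Map3k14 encodes NIK, the kinase of the alternative NF-kB pathway.

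With LPS the normalised read counts of a sample added up to 3571492 to 4058199, and without it to 2469768 to 2790981, while read depth itself was not given. Samples numbered 1 stood apart from those numbered 2 and 3. Across 620 abundant genes, the SD of the log2 ratio within a group was 0.138 to 0.287 between samples 2 and 3, and it was 0.37 to 0.496 where sample 1 entered. Among the lists of cell type markers, the 8 macrophage markers summed to 10027 to 11141 in untreated samples, 11122 to 19679 with LPS and 10976 to 14044 with IL-4, and none was at or below 3 throughout a condition. Markers of T, B and NK cells summed to at most 8 and markers of neutrophils and mast cells to at most 7 in any sample. Those of dendritic cells reached 22, 104 and 37, and those of stromal and epithelial cells 93, 225 and 309, in untreated, LPS and IL-4 samples. Of the 3 stromal and epithelial markers tested, only Pecam1 differed from untreated samples in the tests described below. Its log2 difference was -1.0 at 1 h and 2.67 at 4 h of LPS, and 4.01 at 4 h of IL-4. The part of these marker genes in the results below was not tested. In these bulk samples a smaller share of one cell type and less RNA per cell cannot be told apart. Nothing stated that the numbered samples came from separate animals or cultures, so the p-values measure only the spread between these samples.

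Before stimulation all 10 genes were expressed, with at least 76 normalised read counts in every untreated sample. Per kilobase of gene, the untreated normalised read count was highest for Map3k8 (16.8 ± 1.86, SD, n = 3). Map2k7 (12.01 ± 1.04) and Map3k1 (11.6 ± 0.596) followed and lay within each other's spread, and Map3k14 stood at 7.88 ± 0.528. Map2k4 (4.87 ± 0.419), Map2k3 (4.59 ± 0.942), Map2k2 (4.30 ± 0.385) and Map3k5 (4.28 ± 0.285) formed a group whose neighbours did not differ beyond their spread. Map2k1 (3.36 ± 0.538) came next and Map2k6 (1.31 ± 0.148) was lowest. Whether intronic reads were counted was not stated. Per kilobase of transcript instead of gene, Map3k5 came first at 165 and Map2k7 last at 29.5, so the order depended on the length used. The range over the 9 groups was widest for Map2k6, from 1 to 165 normalised read counts, and Map3k5, whose highest group mean was 38.2 times its lowest. It was narrowest for Map2k2, at 1.71 times, and Map2k7, at 2.04 times.

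**Figure D1:**
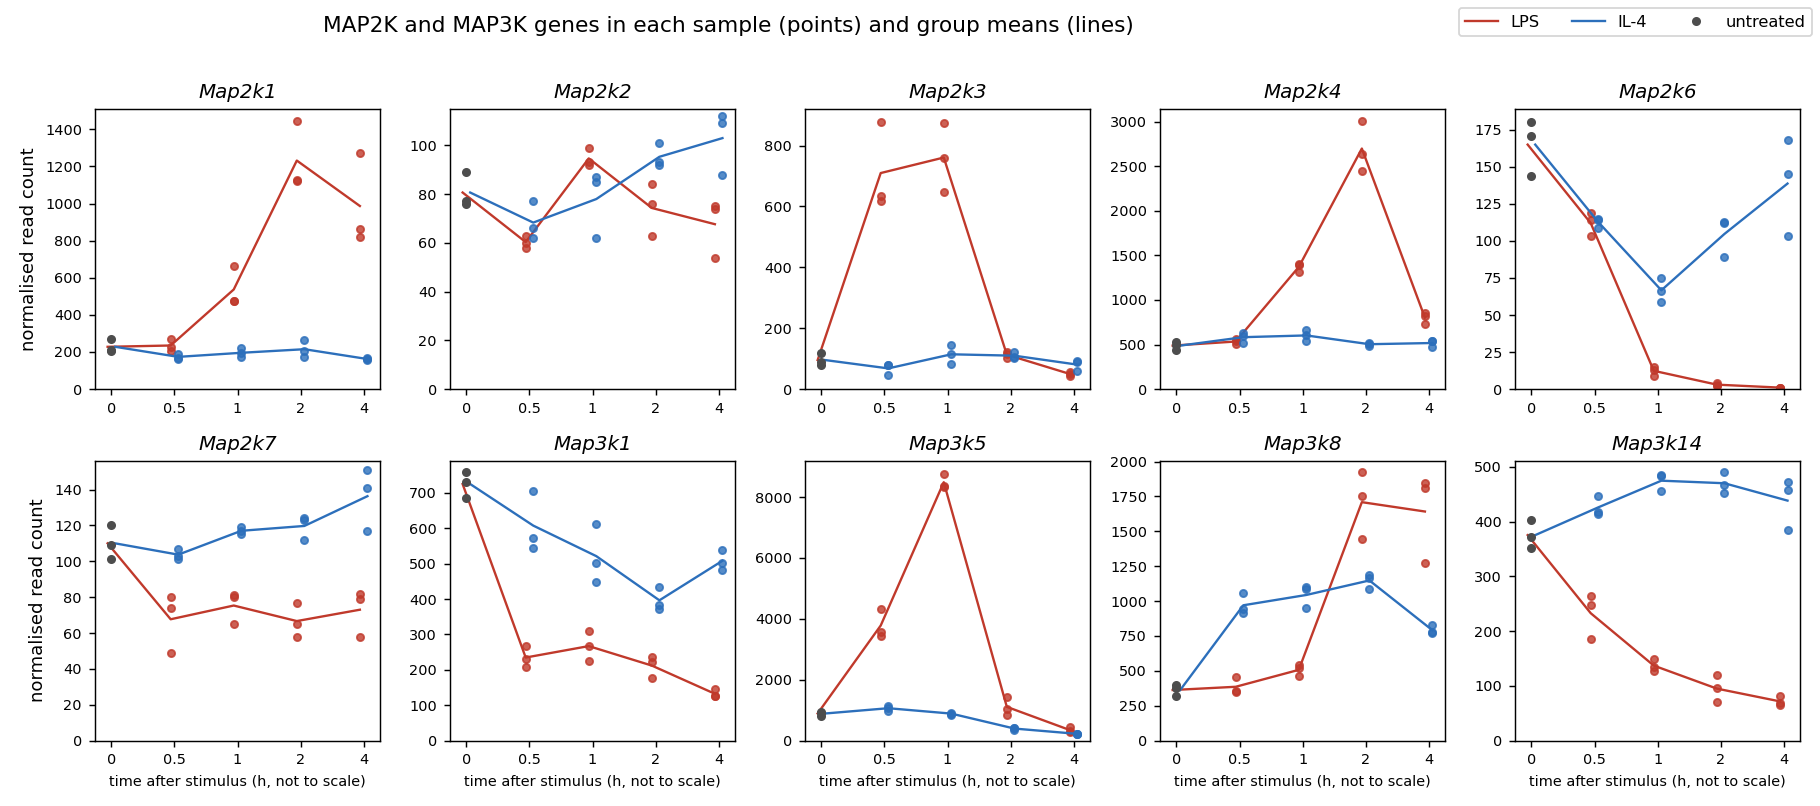
Normalised read count (y axis, from 0, a separate scale for each gene) of the 10 kinase genes against time after LPS (red) or IL-4 (blue). Each point is 1 sample, the grey points at 0 h are the 3 untreated samples and the lines join group means. Map2k3 and Map3k5 peak at 1 h of LPS, Map2k4 and Map2k1 at 2 h, Map2k6 falls to 1 by 4 h, and Map3k8 is raised first by IL-4 and later by LPS.

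The promoters are shown for 4 of these genes, Map2k3 and Map3k5 because they were the first to rise with LPS, Map2k4 because it rose later, and Map2k6 because it fell furthest. Each sequence (RefSeq, GRCm38.p6) runs 5′ to 3′ on the gene's strand from 250 bases before to 50 bases after an annotated start. Capitals mark matches to the 5 motifs searched on both strands, and 2 of the 4 windows held any. The windows lie at chr11:60931804-60932103 (plus strand, Map2k3), chr10:19934276-19934575 (plus strand, Map3k5), chr11:65788310-65788609 (minus strand, Map2k4) and chr11:110398852-110399151 (plus strand, Map2k6).
Map2k3: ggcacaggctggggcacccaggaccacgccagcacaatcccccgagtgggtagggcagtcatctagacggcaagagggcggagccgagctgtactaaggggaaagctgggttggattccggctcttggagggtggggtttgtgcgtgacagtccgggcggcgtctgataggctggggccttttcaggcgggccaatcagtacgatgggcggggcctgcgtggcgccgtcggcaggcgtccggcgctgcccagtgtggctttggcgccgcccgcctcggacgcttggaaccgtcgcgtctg
Map3k5: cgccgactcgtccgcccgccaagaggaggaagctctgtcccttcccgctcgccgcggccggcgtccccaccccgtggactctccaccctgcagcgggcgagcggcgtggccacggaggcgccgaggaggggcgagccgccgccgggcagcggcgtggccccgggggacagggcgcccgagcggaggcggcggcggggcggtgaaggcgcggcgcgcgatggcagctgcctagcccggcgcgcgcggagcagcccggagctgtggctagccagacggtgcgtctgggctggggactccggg
Map2k4: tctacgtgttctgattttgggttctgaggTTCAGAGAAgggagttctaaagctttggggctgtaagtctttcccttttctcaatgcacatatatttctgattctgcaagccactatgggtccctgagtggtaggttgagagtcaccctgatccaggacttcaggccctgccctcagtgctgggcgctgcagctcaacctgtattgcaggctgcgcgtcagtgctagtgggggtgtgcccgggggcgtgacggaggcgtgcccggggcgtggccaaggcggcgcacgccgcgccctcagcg
Map2k6: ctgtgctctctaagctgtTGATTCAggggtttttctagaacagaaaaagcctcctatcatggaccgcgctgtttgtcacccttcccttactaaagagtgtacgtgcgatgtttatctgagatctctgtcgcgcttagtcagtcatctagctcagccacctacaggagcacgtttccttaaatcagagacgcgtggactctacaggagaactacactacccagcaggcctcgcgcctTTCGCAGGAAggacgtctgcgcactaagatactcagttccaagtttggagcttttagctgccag

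The Map2k6 window held the AP-1 letters TGATTCA 232 bases before the start and the STAT letters TTCGCAGGAA 14 bases before it. The Map2k4 window held the STAT letters TTCAGAGAA 221 bases before its start. The windows of Map2k3 and Map3k5 held no match, and they were rich in G and C, at 68.0% and 79.7% of bases. Among all 32851 promoter windows of this length, 7.81% held the AP-1 motif (TGANTCA), 14.6% a STAT motif (TTCNNNGAA or TTCNNNNGAA), 1.79% the CRE (TGACGTCA), 3.44% the ISRE (GAAANNGAAA) and 8.46% the NF-kB motif. Windows were matched for 9 of the 10 genes, and apart from those printed only a second start of Map2k7 held a match, an AP-1 and a STAT motif that overlapped. A match is a run of letters and not a measured binding site.

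With LPS some of the kinases rose and others fell. Over the course of untreated and 4 LPS times, all 10 kinases passed the test for any change (limma F test, Benjamini-Hochberg adjusted p at most 0.05 over all tested genes), beside 87.6% of all tested genes. The largest change of a gene over the course was a rise for 5 kinases (Map2k1, Map2k3, Map2k4, Map3k5 and Map3k8), beside 32.9% of all tested genes that passed and rose. It was a fall for the other 5 (Map2k2, Map2k6, Map2k7, Map3k1 and Map3k14), beside 54.7%. The call for Map2k2 was lost without sample 2 or without sample 3 and that for Map2k7 without sample 3 or under median-of-ratios scaling, and both were lost with samples 2 and 3 averaged. Both shares and counts are near those of the table as a whole, so the number of kinases that changed is not a result about them. The timing differed from gene to gene, and it is given below. Fold changes are differences of log2(normalised read count + 1). Across the 13901 genes the median was -0.24, -0.30, -0.29 and -0.26 at the 4 LPS times, so a kinase at 0 lay above the median gene.

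Map2k3, a p38 kinase gene, gave the earliest rise among the MAP2K genes. It stood at 79, 90 and 117 normalised read counts in the untreated samples (95.3 ± 19.6, SD, n = 3) and at 617, 878 and 634 after 0.5 h of LPS (710 ± 146). The 1 h samples stood at 649, 760 and 873 (761 ± 112). Every sample of these times lay above every untreated sample. The log2 fold change was 2.88 (SE 0.18, limma adjusted p = 3.8e-09) at 0.5 h and 2.99 (adjusted p = 1.5e-09) at 1 h, and 3.13 and 3.30 relative to the median gene. The rise then ended, since the 2 h samples stood at 114, 122 and 103, which overlapped the untreated range. Between 1 and 2 h Map2k3 fell by 2.73 on the log2 scale (adjusted p = 9.2e-09). By 4 h the samples stood at 49, 57 and 43, all below the untreated ones, with a log2 fold change of -0.92 (adjusted p = 0.00036).

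Map3k5, which encodes ASK1, followed a like course with a higher summit. Its untreated samples stood at 824, 935 and 916 (892 ± 59.4) and its 0.5 h samples at 3577, 4309 and 3453 (3780 ± 463). At 1 h it reached 8768, 8354 and 8342 (8488 ± 243), which was 9.52 times the untreated mean. This was the largest rise among the 10 kinases, at 3.25 on the log2 scale (SE 0.18, limma adjusted p = 4.7e-10). After 2 h of LPS its samples stood at 1445, 849 and 1032, and sample 2 lay inside the untreated range. Map3k5 fell by 2.97 on the log2 scale between 1 and 2 h (adjusted p = 3.2e-09) and by a further 1.66 between 2 and 4 h (adjusted p = 6.7e-06). The 4 h samples, at 432, 315 and 293, were all below the untreated samples (log2 fold change -1.38, adjusted p = 5.0e-06).

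Map2k4, which encodes a JNK kinase, passed the test from 1 h of LPS on. Its untreated samples stood at 524, 498 and 442 (488 ± 41.9), and at 0.5 h of LPS it stood at 563, 535 and 504, a log2 fold change of 0.13 that did not pass the test (adjusted p = 0.32). At 1 h it stood at 1401, 1318 and 1393, and at 2 h at 2641, 2446 and 3014 (2700 ± 289), which was 5.53 times the untreated mean. Every sample of both times was above the untreated range, with log2 fold changes of 1.49 (SE 0.11, adjusted p = 1.2e-08) and 2.46 (adjusted p = 2.3e-11). From 2 to 4 h Map2k4 fell by 1.75 on the log2 scale (adjusted p = 3.4e-08), to 734, 816 and 855. These 4 h samples remained above all untreated samples (log2 fold change 0.72, adjusted p = 2.8e-05), but with libraries scaled to equal totals the log2 fold change was 0.11 and did not pass.

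Map2k1, which encodes MEK1, rose from 270, 210 and 204 in untreated samples (228 ± 36.5) to 665, 473 and 473 at 1 h of LPS and to 1445, 1122 and 1129 at 2 h (1232 ± 184). The 0.5 h samples overlapped the untreated ones at 272, 226 and 207. At 4 h the samples stood at 1275, 865 and 821, and the step from 2 to 4 h did not pass the test (log2 difference -0.34, adjusted p = 0.23). Against untreated samples the log2 fold changes were 1.22, 2.43 and 2.09 (SE 0.19) at 1, 2 and 4 h, with limma adjusted p-values of 4.7e-05, 2.0e-08 and 1.2e-07. Sample 1 was the highest Map2k1 value in each LPS group and in the untreated group. Uchl4, a gene that overlaps 1162 bases of the Map2k1 span on the other strand, went from a mean of 9.67 in untreated samples to 63.3 at 2 h of LPS, and without knowledge of strand the reads of such a pair cannot be assigned with certainty. Map2k2, which encodes MEK2, did not follow Map2k1. It stood at 76, 77 and 89 in untreated samples, and its 12 LPS values ran from 54 to 99. Its one called time was 0.5 h, at 60, 58 and 63 (log2 fold change -0.41, SE 0.16, adjusted p = 0.044). The call was lost without sample 2 or without sample 3, and the largest Map2k2 change of the course ranged from -0.91 to 0.49 over the alternatives, so its direction under LPS was not settled.

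Map3k8, which encodes TPL2, rose mainly after 1 h of LPS. The untreated samples stood at 396, 318 and 374 (363 ± 40.2), the 0.5 h samples at 353, 352 and 453, and the 1 h samples at 543, 461 and 518. The 1 h difference was small (log2 fold change 0.49, SE 0.16, limma adjusted p = 0.015), and it was -0.10 with libraries scaled to equal totals and did not pass without sample 2 or without sample 3. At 2 h the samples stood at 1445, 1755 and 1926 (1709 ± 244), 4.71 times the untreated mean, and at 4 h at 1275, 1843 and 1808. Most of the rise fell in the step from 1 to 2 h, which was 1.74 on the log2 scale (adjusted p = 3.2e-07), while the step from 2 to 4 h was -0.07 (adjusted p = 0.82). Against untreated samples the log2 fold change was 2.23 at 2 h (adjusted p = 7.6e-09) and 2.16 at 4 h (adjusted p = 1.1e-08).

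**Figure D2:**
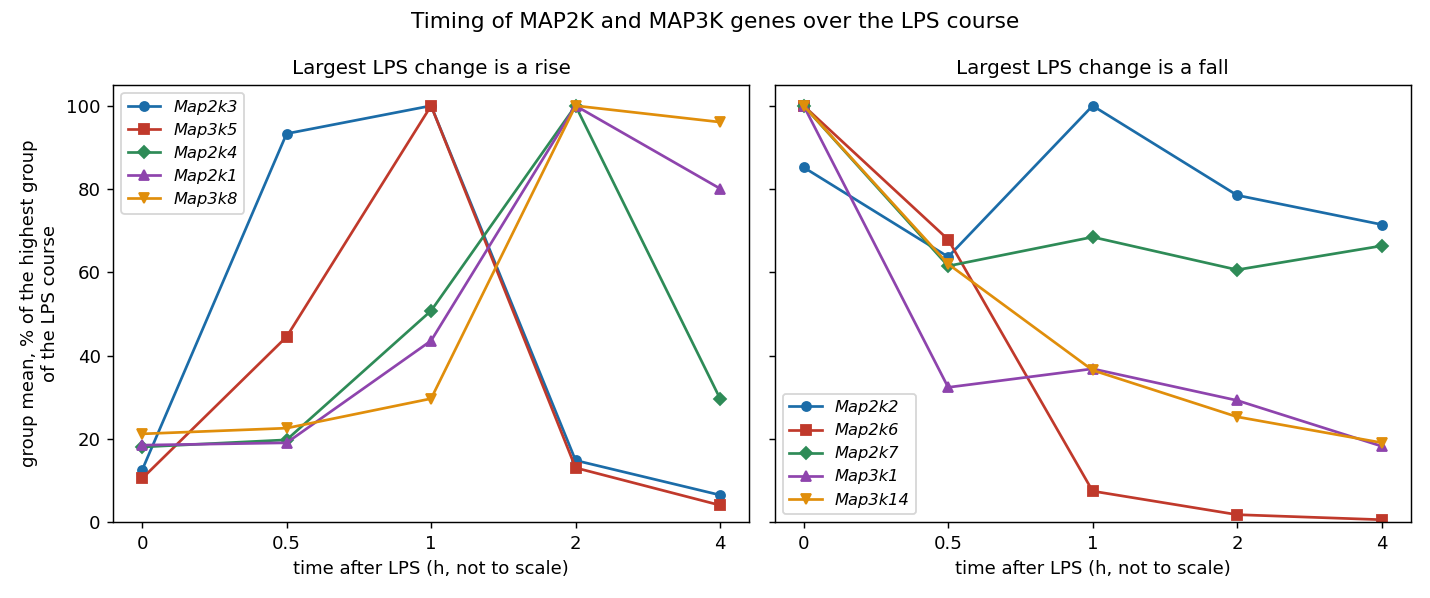
Mean normalised read count of each LPS group as a percentage of the highest group of the course (y axis) against time after LPS (x axis, not to scale), 3 samples a group. On the left, Map2k3 is at 93.3% of its summit at 0.5 h and Map3k5 at 44.5%, while Map2k4, Map2k1 and Map3k8 are still at 19.8%, 19.1% and 22.6%. On the right, Map3k1 is at 32.4% of its untreated level by 0.5 h, and Map2k6 is at 7.47% by 1 h.

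The falls were as unlike in size as the rises were in timing. Map2k6, the second p38 kinase gene, stood at 144, 171 and 180 in untreated samples (165 ± 18.7) and at 114, 119 and 103 after 0.5 h of LPS. Though these ranges did not overlap, the 0.5 h difference missed the test (log2 fold change -0.55, adjusted p = 0.081). The 0.5 h fall did pass with 8 added in place of 1, with equal totals, and with another set of samples in the fit. At 1 h Map2k6 stood at 15, 9 and 13, a mean 13.4 times lower than in untreated samples. At 2 h it stood at 2, 3 and 4, and at 4 h at 1 in all 3 samples. The log2 fold changes of -3.66, -5.40 and -6.37 (SE 0.26) passed with adjusted p-values of 8.4e-09, 6.0e-11 and 8.7e-12. At values this low the size depends on the added constant, and the 4 h figure ranged from -6.81 to -4.26 over the alternatives. The steepest step was that from 0.5 to 1 h, at -3.11 on the log2 scale (adjusted p = 1.5e-07). Map2k6 and Map2k3, whose products share the substrate p38, therefore stood at 12.3 and 761 normalised read counts at 1 h of LPS, against 165 and 95.3 in untreated samples.

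Map3k1, which encodes MEKK1, made most of its fall within the first 0.5 h. It stood at 759, 730 and 685 in untreated samples (725 ± 37.3) and at 207, 230 and 267 at 0.5 h of LPS (235 ± 30.3). None of its 12 LPS samples exceeded 311. The log2 fold changes were -1.63, -1.45, -1.78 and -2.45 (SE 0.15) at the 4 times, with limma adjusted p-values between 9.7e-10 and 6.1e-07. Neither the step from 0.5 to 1 h nor that from 1 to 2 h passed (adjusted p = 0.33 and 0.087), while from 2 to 4 h Map3k1 fell by 0.67 on the log2 scale (adjusted p = 0.0041), to 125, 127 and 145.

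Map3k14, which encodes NIK, declined more evenly. Untreated samples stood at 372, 352 and 402 (375 ± 25.2), and LPS samples at 248, 185 and 265 at 0.5 h, at 127, 135 and 149 at 1 h, at 119, 70 and 96 at 2 h, and at 82, 68 and 65 at 4 h. No LPS sample reached the untreated range. The log2 fold changes were -0.70, -1.45, -2.002 and -2.38 (SE 0.18), with limma adjusted p-values from 1.9e-08 to 0.0047, and the 0.5 h call was lost under median-of-ratios scaling. Gm34823, on the opposite strand over 39.9% of the Map3k14 span, had means of 93.7 in untreated samples, 25.7 at 1 h of LPS and 36.7 at 4 h. Whether reads were shared between the pair was not tested.

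Map2k7, the gene of the second JNK kinase, stood at 109, 101 and 120 in untreated samples (110 ± 9.54), and its 12 LPS values ran from 49 to 82. The groups did not overlap at any LPS time. The log2 fold changes of -0.72, -0.54, -0.72 and -0.60 (SE 0.20) passed with adjusted p-values of 0.0072, 0.028, 0.0056 and 0.018, but each was lost without sample 3. The 1 h and 4 h calls were also lost under median-of-ratios scaling and without sample 1, and the 0.5 h call without sample 2. With no filter or with samples 2 and 3 averaged the 1 h call was lost as well. Relative to the median gene the 4 log2 fold changes were -0.48, -0.24, -0.43 and -0.34.

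Counted by time, 6, 9, 7 and 9 kinases differed from untreated samples. At 0.5 h, 2 of 10 kinases were higher (Map2k3 and Map3k5) beside 19.6% of all tested genes, and 4 were lower (Map2k2, Map2k7, Map3k1 and Map3k14) beside 34.4%. With libraries scaled to equal totals, 2 were higher beside 11.7% of all tested genes and 8 lower beside 52.2% at this time. By 1 h, 5 were higher beside 24.8% and 4 lower beside 39.0%. After 2 h, 3 were higher (Map2k1, Map2k4 and Map3k8) beside 26.9% and 4 lower beside 39.0%. The 4 h comparison had the same 3 higher beside 25.9% and 6 lower beside 37.6%, since Map2k3 and Map3k5 had by then passed from higher to lower. The median log2 fold change of the 10 kinases was -0.18, 0.36, 0.07 and -0.76 at the 4 times.

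**Figure D3:**
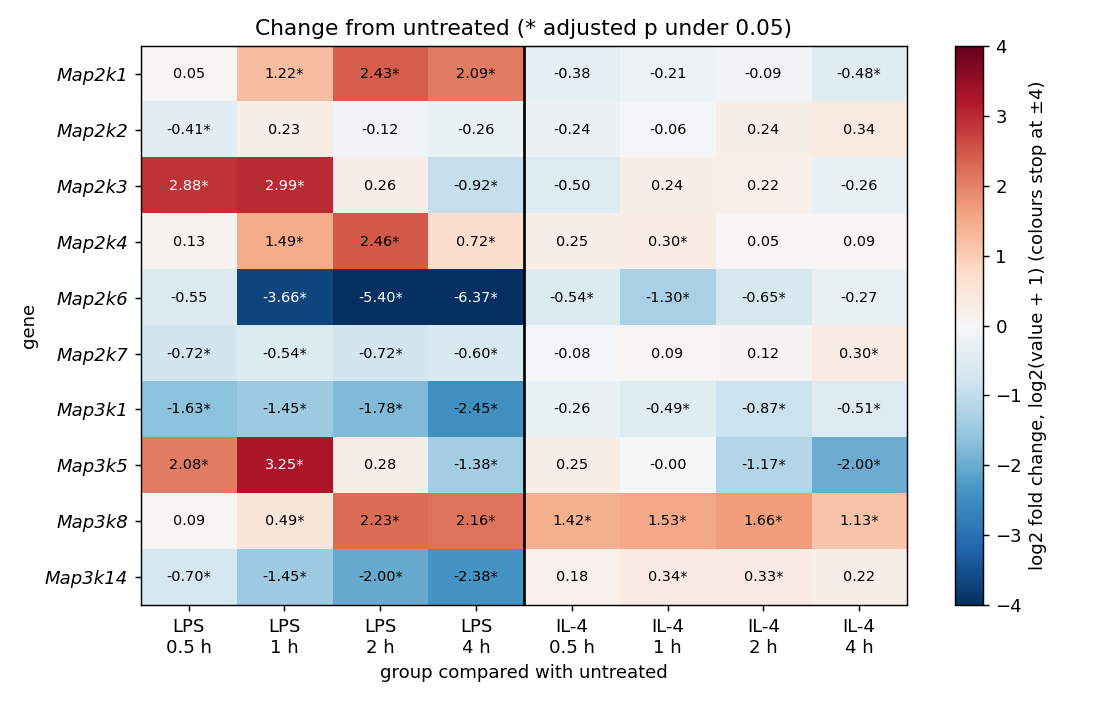
Log2 fold change against untreated, on the log2(value + 1) scale, for the 10 kinase genes (rows) at 4 LPS and 4 IL-4 times (columns), 3 samples a group. Red is higher, blue is lower, and a star marks an adjusted p under 0.05. Map2k3 and Map3k5 turn from 2.99 and 3.25 at 1 h of LPS to -0.92 and -1.38 at 4 h, and the strongest IL-4 cells are Map3k8 at 1.66 and Map3k5 at -1.999. Under scaling to equal totals Map3k8 at 1 h of LPS is at -0.10.

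With IL-4 the largest changes were those of 2 MAP3K genes, Map3k8 and Map3k5. Over the IL-4 course 6 of 10 kinases passed the F test, beside 40.3% of all tested genes. The largest change was a rise for Map2k2, Map3k8 and Map3k14, beside 19.4%, and a fall for Map2k6, Map3k1 and Map3k5, beside 20.9%. The count was 3 without sample 2 or without sample 3, and 9 without sample 1. It was 10 in a fit that blocked on the sample number, which added Map2k1, Map2k3, Map2k4 and Map2k7. All tested genes moved the same way. Of 13901, 5606 passed in the main fit, 2234 without sample 2, 2169 without sample 3, 6546 without sample 1 and 7409 with the block. Across the 13901 genes the median stayed between -0.02 and 0.02 on the log2 scale at the 4 IL-4 times, and for the 10 kinases it was -0.16, 0.04, 0.09 and -0.09.

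Map3k8 had the largest rise with IL-4 among the 10 kinases. It stood at 1055, 913 and 942 at 0.5 h of IL-4 (970 ± 75.0, against 363 ± 40.2 in untreated samples), at 1100, 1084 and 948 at 1 h, at 1090, 1189 and 1165 at 2 h, and at 771, 775 and 826 at 4 h. All 12 IL-4 samples lay above the untreated range of 318 to 396. Log2 fold changes were 1.42, 1.53, 1.66 and 1.13 (SE 0.09), with limma adjusted p-values of 2.1e-07, 5.4e-08, 2.2e-08 and 9.9e-07. All 4 calls held in each of the 12 alternatives. Between 2 and 4 h the level fell by 0.54 on the log2 scale (adjusted p = 0.0038), a step that was lost without sample 2 or without sample 3.

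Map3k5 was the kinase that IL-4 lowered most. Its samples stood at 967, 1143 and 1085 at 0.5 h and at 854, 891 and 918 at 1 h, neither of which passed the test (adjusted p = 0.059 and 0.98). They then dropped to 355, 411 and 424 at 2 h (397 ± 36.7) and to 214, 224 and 228 at 4 h (222 ± 7.21), against 824 to 935 in untreated samples. The log2 fold changes of -1.17 (SE 0.08, adjusted p = 2.6e-07) and -1.999 (adjusted p = 2.8e-09) held in each of the 12 alternatives.

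Map2k6 and Map3k1 were lowest in the middle of the IL-4 course. Map2k6 stood at 115, 109 and 114 at 0.5 h and at 66, 59 and 75 at 1 h (66.7 ± 8.02), with log2 fold changes of -0.54 (adjusted p = 0.039) and -1.30 (SE 0.16, adjusted p = 5.7e-05). At 2 h it stood at 89, 112 and 113 (log2 fold change -0.65, adjusted p = 0.0088). The 4 h samples, at 103, 145 and 168, overlapped the untreated range and did not pass (adjusted p = 0.27). Its step up from 1 to 2 h was 0.64 on the log2 scale (adjusted p = 0.026), which was lost without sample 2 or without sample 3, as were the 0.5 h and 2 h calls. Map3k1 reached its lowest IL-4 level at 2 h, at 434, 384 and 371 (396 ± 33.3, against 725 ± 37.3), which was -0.87 on the log2 scale (SE 0.12, adjusted p = 8.8e-05). At 1 h and 4 h its log2 fold changes were -0.49 (adjusted p = 0.0091) and -0.51 (adjusted p = 0.0058), both of which were lost without sample 2 or without sample 3.

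The other IL-4 changes were small, and apart from those of Map3k14 the calls were close to the threshold. Map3k14 stood at 485, 483 and 456 at 1 h and at 490, 453 and 467 at 2 h, above the untreated samples at 352 to 402, with log2 fold changes of 0.34 (SE 0.08, adjusted p = 0.0091) and 0.33 (adjusted p = 0.0095). Gm34823, on its opposite strand, stood at means of 107 and 111 at these times, against 93.7. Single times also passed for Map2k4 at 1 h (log2 fold change 0.30, adjusted p = 0.044), Map2k7 at 4 h (0.30, adjusted p = 0.043) and Map2k1 at 4 h (-0.48, adjusted p = 0.029). Map2k2 passed the F test (adjusted p = 0.027) with no single time called, from 66, 77 and 62 at 0.5 h to 88, 109 and 112 at 4 h. Each of these calls was lost without sample 2 and without sample 3. Map2k3 passed at no IL-4 time, with log2 fold changes between -0.50 and 0.24. In the fit that blocked on the sample number, its 0.5 h value passed (limma adjusted p = 0.032).

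By time, 1 kinase was higher and 1 lower at 0.5 h of IL-4, beside 8.15% and 8.14% of all tested genes. At 1 h, 3 were higher beside 11.1% and 2 lower beside 9.83%. For 2 h these were 2 higher beside 14.3% and 3 lower beside 13.2%, and for 4 h 2 higher beside 13.4% and 3 lower beside 12.5%. Leaving out 1 sample number at a time moved the total count to between 1 and 6 at 0.5 h, between 2 and 5 at 1 h, between 3 and 5 at 2 h and between 2 and 6 at 4 h, and the low end came each time without sample 2 and without sample 3. Calls over all tested genes also fell without sample 2 or 3 and rose without sample 1. At 0.5 h they went from 2265 to 773, 878 and 2953 without samples 2, 3 and 1.

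LPS and IL-4 were then compared directly at each time, in a single fit of all 27 samples in which the untreated samples did not enter the contrast. For Map3k8 and Map2k3 the order of the stimuli turned over with time in the main fit, though the late Map2k3 call was lost in some alternatives. At 0.5 h the Map3k8 LPS samples, at 353 to 453, lay below the IL-4 samples, at 913 to 1055, with a log2 difference (LPS minus IL-4) of -1.33 (SE 0.13, limma adjusted p = 1.3e-08). The 1 h difference was -1.04 (adjusted p = 3.8e-07). At 2 h the LPS samples, at 1445 to 1926, lay above the IL-4 samples, at 1090 to 1189, by 0.56 (adjusted p = 0.00072), though scaling to equal totals gave -0.07. At 4 h they were higher by 1.03 (adjusted p = 3.4e-07).

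Map2k3 was higher with LPS by 3.39 at 0.5 h (SE 0.23, adjusted p = 1.1e-11) and by 2.75 at 1 h (adjusted p = 2.3e-10). It did not pass at 2 h, where the difference was 0.04 (95% interval -0.42 to 0.51, adjusted p = 0.87). With equal totals the 2 h difference was -0.58 and passed as lower with LPS (limma adjusted p = 0.021). At 4 h Map2k3 was lower with LPS (-0.66, adjusted p = 0.013). The 4 h call was lost under median-of-ratios scaling, with samples 2 and 3 averaged, and without sample 2 or without sample 3. Map3k5 was higher with LPS at all 4 times, by 1.82, 3.26, 1.45 and 0.62 (SE 0.15), but the 4 h difference was -0.00 under scaling to equal totals. Map2k4 was higher with LPS from 1 h on, by 1.19, 2.42 and 0.63 (SE 0.10), and the last of these did not pass with equal totals. Map2k1 was higher by 0.43, 1.44, 2.53 and 2.57 (SE 0.18). Its 0.5 h call (limma adjusted p = 0.045) was lost without sample 2 or without sample 3, and with equal totals, where the difference was 0.05.

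Map2k6 did not differ detectably between the stimuli at 0.5 h (-0.01, adjusted p = 0.97), and was lower with LPS from 1 h on, at -2.36, -4.75 and -6.10 on the log2 scale (SE 0.20). Map3k14 was lower with LPS at every time, at -0.89, -1.79, -2.33 and -2.60 (SE 0.15), as were Map3k1, at -1.37, -0.96, -0.91 and -1.93 (SE 0.14), and Map2k7, at -0.64, -0.64, -0.84 and -0.90 (SE 0.17), where the 0.5 h call for Map2k7 was lost without sample 2. Map2k2 passed at 2 h (-0.36, adjusted p = 0.041) and at 4 h (-0.61, adjusted p = 0.0014), of which the first was lost without sample 1 or without sample 2 and the second without sample 3.

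Counted over the kinases, 3 were higher with LPS than with IL-4 at 0.5 h beside 18.0% of all tested genes, and 4 lower beside 35.8%. At 1 h, 4 were higher beside 24.0% and 5 lower beside 40.5%. The 2 h counts were 4 higher beside 26.4% and 5 lower beside 42.3%, and the 4 h counts 4 higher beside 26.1% and 6 lower beside 41.9%. The median of all tested genes was -0.23, -0.33, -0.34 and -0.36 at these times.

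**Figure D4:**
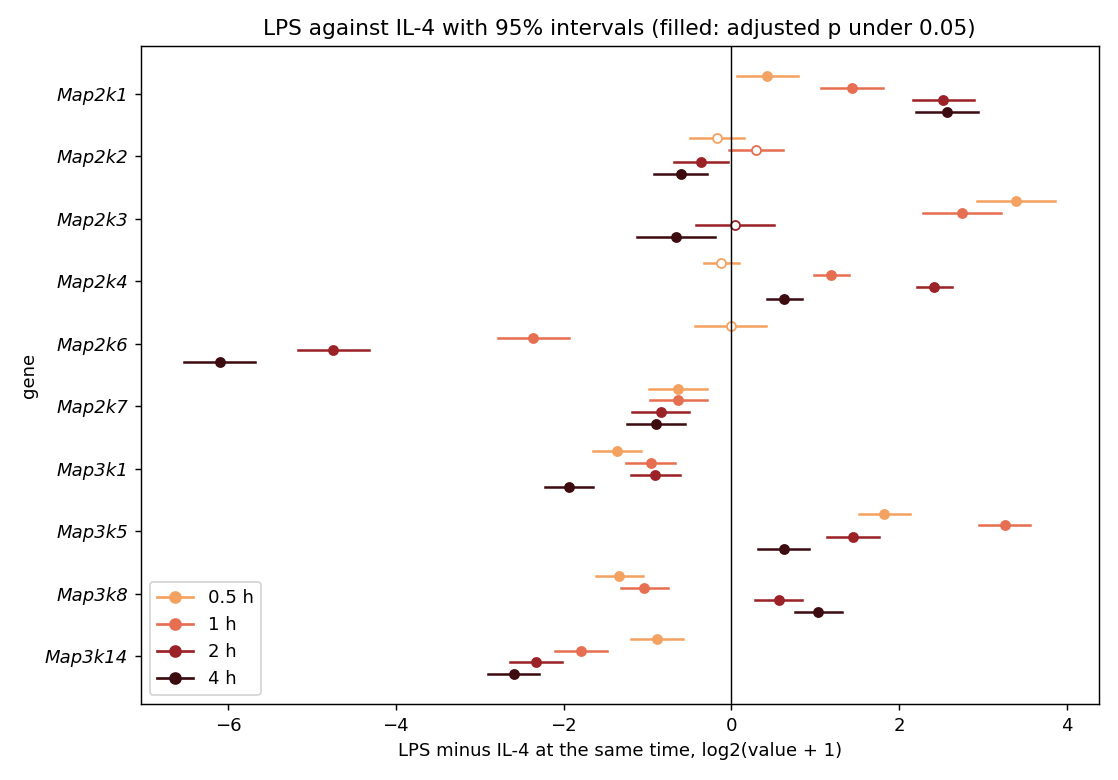
Difference between LPS and IL-4 at the same time (x axis, log2(value + 1), LPS minus IL-4) for each kinase gene (y axis) at each of the 4 times, with 95% intervals from the limma fit of all 27 samples. Filled points have an adjusted p under 0.05. Map3k8 moves from -1.33 to 1.03, Map2k3 from 3.39 to -0.66, and Map2k6 from -0.01 to -6.10. Under scaling to equal totals Map3k8 at 2 h is at -0.07 and Map3k5 at 4 h at -0.00. The Map2k3 call at 4 h is lost under median-of-ratios scaling.

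Over the 9 group means, some of the kinases had like profiles. As a description over 9 groups that share their libraries, Pearson's r of log2 means was 0.878 for Map2k3 and Map3k5, 0.935 for Map2k6 and Map3k14, 0.895 for Map3k1 and Map3k14, and -0.962 for Map2k1 and Map2k6. Among 7566 or 7567 candidate protein-coding genes, the profiles most like that of Map2k6 were Insr, the insulin receptor gene (r = 0.999), and 2900026A02Rik (0.993). Those most like Map3k14 were Cep250 (0.997) and Tmem144 (0.993), and those most like Map2k1 were Agrn (0.995) and Mndal (0.994). Map2k3 was matched best by Mpp5 (0.985) and Zbtb11 (0.979), Map3k5 by Trps1 (0.977) and Epb41l2 (0.970), and Map2k4 by Rnf115 (0.977) and Cdyl (0.970). For Map3k8 these were Ccdc86 (0.985) and Zbtb5 (0.964), for Map2k7 Zfp958 and Abcd3 (both 0.985), for Map3k1 Cdk20 (0.975) and Commd8 (0.969), and for Map2k2 Gigyf2 (0.938) and Golga4 (0.912).

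The remaining genes of the cascades were taken from lists by function. The median of the largest log2 fold change of the LPS course was 0.91 for the 10 kinases, -1.11 for the other MAP2K and MAP3K genes, -1.39 for the MAP kinases, 2.02 for partners and scaffolds and 3.93 for early targets, beside -1.002 for all tested genes. The value of 0.91 lies between Map3k8 (2.23) and Map2k2 (-0.41), as 5 kinases rose and 5 fell. The direction of Map2k2 was not settled, so this median does not show a shared rise. For the IL-4 course the medians, in the same order, were -0.09, -0.30, -0.43, 0.22 and -0.93, beside -0.16. Of 19 other MAP2K and MAP3K genes, 15 were tested. All 15 passed the LPS F test, beside 87.6% of all tested genes, so passing is not a result about a list. The largest change was a rise for 3 beside 32.9%, and a fall for 12 beside 54.7%. With another scaling (median of ratios) these were 6 and 9. The largest rise was that of Map3k6, a relative of ASK1, from 3, 3 and 1 to 41, 36 and 38 at 1 h, and the largest fall that of Map3k9, from 85, 132 and 113 to 8, 9 and 13 at 2 h (log2 fold change -3.34, adjusted p = 8.5e-09). Map3k20 rose with LPS to a log2 fold change of 2.30 at 1 h (adjusted p = 3.3e-08). Map3k7, which encodes TAK1, the MAP3K below TRAF6, moved little, with log2 fold changes between 0.35 at 0.5 h (adjusted p = 0.025) and -0.52 at 4 h (adjusted p = 0.0018).

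Under IL-4, 10 of the 15 passed beside 40.3% of all tested genes, 3 by a rise beside 19.4% and 7 by a fall beside 20.9%. The count was 5 without sample 2 and 4 without sample 3, where 2234 and 2169 of all 13901 tested genes passed. Map3k12 rose furthest, from 131, 163 and 178 to 460, 501 and 553 at 2 h (log2 fold change 1.68, adjusted p = 8.4e-07), and Map3k9 fell furthest, to 30, 28 and 24 (-1.95, adjusted p = 5.7e-06). Map3k20 fell to -0.67 at 2 h (adjusted p = 0.0020). Map3k7 did not pass the IL-4 F test (adjusted p = 0.14).

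One tier below, 7 of 10 MAP kinase genes were tested. All 7 passed the LPS F test beside 87.6% of all tested genes, 2 by a rise beside 32.9% and 5 by a fall beside 54.7%. Mapk14, which encodes p38 alpha, a substrate of the products of Map2k3 and Map2k6, stood at 917, 867 and 887 in untreated samples and at 135, 151 and 134 after 4 h of LPS (log2 fold change -2.66, adjusted p = 6.2e-12). Mapk11, which encodes p38 beta, rose furthest but stayed low, at 6, 13 and 13 at 2 h against 1, 1 and 3. With IL-4, 2 of the 7 passed beside 40.3% of all tested genes, 1 by a rise beside 19.4% and 1 by a fall beside 20.9%. Neither call held without sample 2. The fall was that of Mapk14 (-0.43 at 2 h, adjusted p = 0.00065).

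Among partners and scaffolds, 20 of 22 genes were tested. All 20 passed the LPS F test beside 87.6% of all tested genes, 15 by a rise beside 32.9% and 5 by a fall beside 54.7%. With equal totals these were 13 and 7. Nfkb1, whose product p105 holds TPL2, rose from 835, 748 and 791 to 13855, 13025 and 12851 at 1 h of LPS (log2 fold change 4.06, adjusted p = 2.3e-12). Most of the Map3k8 rise came after that time. Tnip2, which encodes ABIN2, rose to 329, 248 and 296 at 2 h from 92, 87 and 94 (1.66, adjusted p = 3.0e-08). Around NIK, whose level TRAF3 restrains, Traf3 went to 1361, 1117 and 1088 at 1 h of LPS from 388, 297 and 251 (1.94, adjusted p = 4.0e-06) and stood at -0.67 at 4 h (adjusted p = 0.022). Nfkb2 and Relb, which encode the alternative NF-kB subunits, rose by 3.85 (adjusted p = 6.3e-12) and 3.80 (adjusted p = 1.9e-09) at 1 h. Tab1, which encodes a partner of TAK1, fell furthest, by 2.39 at 1 h (adjusted p = 3.8e-08). With IL-4, 9 of the 20 passed beside 40.3% of all tested genes, 5 by a rise beside 19.4% and 4 by a fall beside 20.9%. The count was 3 without sample 2 and 2 without sample 3. The largest rise was that of Nfkb1 (1.05 at 1 h, adjusted p = 1.4e-06). The largest fall was that of Ksr1, a scaffold of the MEK and ERK kinases (-1.06 at 1 h, adjusted p = 4.3e-05). Tnip2, Traf3, Nfkb2 and Relb did not pass the IL-4 F test, with adjusted p-values of 0.51, 0.59, 0.97 and 0.82. Several of the genes named here, Nfkb1, Nfkb2, Traf3, Tab1, Ksr1, Map3k7, Map3k12, Map3k20 and Mapk14 among them, overlap another annotated gene, with which they could share reads.

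Of 14 early target genes of MAP kinase signalling all were tested and passed the LPS F test, beside 87.6% of all tested genes. The change was a rise for 13 beside 32.9%, and a fall for 1 beside 54.7%. Dusp2, which encodes a MAP kinase phosphatase, stood at 1 in all 3 untreated samples and at 248, 221 and 237 at 2 h of LPS, while Dusp6, an ERK phosphatase gene, went from 17, 19 and 39 to 2, 1 and 2 at 4 h (log2 fold change -3.21, adjusted p = 1.1e-05). With IL-4, 9 passed beside 40.3% of all tested genes, 4 by a rise beside 19.4% and 5 by a fall beside 20.9%. The count was 4 without sample 2 and 6 without sample 3. Egr2 rose from 2, 1 and 5 to 54, 47 and 44 at 0.5 h (3.90, adjusted p = 1.1e-05), and Fos went from 15, 19 and 45 to 1, 4 and 2 at 4 h (-2.98, adjusted p = 0.00035). Dusp6 and Egr2 also overlap another annotated gene.

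All 10 kinase genes are annotated as protein-coding in the table (GRCm38 coordinates). On chromosome 11 lie Map2k3 at 60932054 to 60952811, Map2k4 at 65688244 to 65788359, Map3k14 at 103219764 to 103267401 and Map2k6 at 110399102 to 110525522. Map2k2 lies on chromosome 10 at 81105915 to 81124697 and Map3k5 on the same chromosome at 19934526 to 20142750, Map2k1 on chromosome 9 at 64185769 to 64253605, Map2k7 on chromosome 8 at 4238740 to 4247897, Map3k1 on chromosome 13 at 111746428 to 111808993 and Map3k8 on chromosome 18 at 4331327 to 4352953. Map3k5 had the longest span, at 208 kb, and Map2k7 the shortest, at 9.16 kb. Besides the pairs named above, Map2k4 holds Mir744 and Map2k6 overlaps Gm39446, whose group means did not exceed 5.67 and 2.33 normalised read counts.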

How the data were processed

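Chromatin-associated RNA from 27 BMDM samples was made into libraries by a Smart-seq2 procedure with random primers. The authors aligned reads to mm10 (TopHat2 2.1.1 in the submitters' processing notes), removed multiply mapped and blacklisted reads, counted per gene and scaled the libraries by genes that do not vary. Deposited were these normalised counts, rounded to whole numbers and here treated as a score. Whether strand or introns were used in counting is not given in the sources used here.

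Genes with at least 10 in at least 3 of 27 samples were tested (13901). Values were taken as log2(value + 1) and fitted with limma 3.58.1 in R 4.3.3 with a mean-variance trend and Benjamini-Hochberg adjustment over all tested genes, at a threshold of 0.05. An F test and contrasts were fitted per course (15 samples), and LPS was set against IL-4 in 1 fit of all 27. The impulse model of the study was not run. Scripts were tested on simulated data.

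The 10 kinases and the gene lists were chosen with earlier results of these data known. The text names all 10 kinases, the 2 genes most correlated with each over group means (among protein-coding genes with a mean of at least 50 in the highest group and no overlap), 10 listed pathway genes, and the largest rise and fall of each list and course, of which some are not reported here.

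Alternatives were a pseudocount of 8 or 0.5, no filter or a mean of at least 50, median-of-ratios scaling, equal totals, the replicate number as a block, replicates 2 and 3 averaged, leaving out each number, and another set of samples in the fit. Promoters came from RefSeq, and 9 of the 10 genes matched.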

Additional observations from a re-analysis of the deposited data

Results flagged for a closer look

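Each of the 10 kinases differed between LPS and IL-4 at some time by the direct test (limma, all 27 samples). At 4 h alone 26.1% of all tested genes were higher with LPS and 41.9% lower. The share of all tested genes that differed at any time was not computed, so the count of 10 is not a result about these kinases. For each kinase the largest difference that passed is given as LPS minus IL-4 on the log2 scale. LPS was above IL-4 for Map2k3 at 0.5 h (3.39), Map3k5 at 1 h (3.26), Map2k1 at 4 h (2.57) and Map2k4 at 2 h (2.42). It was below IL-4 for Map2k6 at 4 h (-6.10), Map3k14 at 4 h (-2.60), Map3k1 at 4 h (-1.93), Map3k8 at 0.5 h (-1.33), Map2k7 at 4 h (-0.90) and Map2k2 at 4 h (-0.61). A later difference that passed had the opposite sign for Map3k8 (1.03 at 4 h) and for Map2k3 (-0.66 at 4 h). The Map2k3 call was lost under median-of-ratios scaling, with samples 2 and 3 averaged, and without sample 2 or without sample 3. The value for Map2k2 did not pass without sample 3, and those of the other 9 passed in each of the 12 alternatives. The percentage of all tested genes that differed in each direction stands beside the counts given earlier.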

How the results depend on the processing

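Each of the 14 counts of kinases was recomputed under 12 alternatives, and 145 of the 168 recomputed counts lay within 1.5 times the reported one. At 0.5 h of LPS, where 6 kinases changed, equal totals gave 10. At 0.5 h of IL-4, where 2 changed, no filter gave 1, equal totals 4, replicates 2 and 3 averaged 1, and another set of samples in the fit 1. With replicates averaged the IL-4 counts were 2 at 1 h, 3 at 2 h and 2 at 4 h, where each had been 5, and at 4 h no filter and another set of samples each gave 3. Leaving out one number at a time, the IL-4 counts ranged from 1 to 6 (0.5 h), 2 to 5 (1 h), 3 to 5 (2 h), 2 to 6 (4 h) and, for the course, reported as 6, from 3 to 9. Calls over all tested genes also fell without sample 2 or 3 and rose without sample 1, as given above.

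Same-numbered samples deviated together with r from 0.0897 to 0.713 over pairs of groups. Median r was 0.499, 0.224 and 0.29 for numbers 1, 2 and 3, and 36, 34 and 36 of 36 pairs passed 0.1. Numbers 2 and 3 also went together (median r 0.243), while number 1 ran against both (-0.328 and -0.378). The main fits did not block on the number, so this shared offset stayed in their error. With the replicate block the IL-4 course gave 10 kinases and 0.5 h of IL-4 gave 6. Over all 13901 tested genes the block took the IL-4 course from 5606 to 7409 calls, and 0.5 h of IL-4 from 2265 to 3277.

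Equal totals turned the sign of 7 single values that passed under one of the settings. These were Map2k1 (-0.46), Map2k4 (-0.38) and Map3k8 (-0.42) at 0.5 h of LPS, Map3k8 at 1 h of LPS (-0.10), and, for LPS against IL-4, Map2k3 at 2 h (-0.58), Map3k8 at 2 h (-0.068) and Map3k5 at 4 h (-0.0014). The cause was not tested beyond the rescaling itself. Of 2160 recomputed single values, 109 lost and 45 gained a call, and 31 changed sign without a call under either setting. The rounding of deposited values limits what can be said of the lowest levels, such as Map2k6 late after LPS.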
